A study of Mus musculus with 156 samples.

Results

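Germ cell genes were followed in mouse embryonic stem cells (ESC) in which the long noncoding RNA Firre was absent, present or induced. The set comprised 10 of the 40914 genes in the deposited tables, chosen by gene name: Dazl, Ddx4, Mael, Asz1, Sycp1, Sycp3, Hormad1, Rhox5, Rhox6 and Rhox9. Most genes of this kind act in germ cells. Many of them are held near silence in most other cells by DNA methylation at CpG-rich promoters. Repressor complexes that bind E-box and E2F sites through MGA, MAX and E2F6 silence many of them as well. ESC methylate their DNA incompletely, in particular under inhibitors of MEK and GSK3, and transcribe several of these genes at low to moderate levels without becoming germ cells. DNA methylation was not measured in these files, so the set is described here by RNA alone.

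DAZL and DDX4 (also called VASA) are RNA-binding proteins that act on the translation and storage of germ cell mRNA. MAEL and ASZ1 belong to the piRNA pathway, which silences transposable elements in male germ cells. SYCP1, SYCP3 and HORMAD1 are proteins of the meiotic chromosome axis and synaptonemal complex, the structure that holds homologous chromosomes together in meiosis. RHOX5, RHOX6 and RHOX9 are reproductive homeobox proteins encoded in a cluster on the X chromosome and are known from testis, ovary and placenta.

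The cells were labelled mESC and came as 4 lines. The WT control and the KO control (Firre KO) carried no transgene, and the WT transgene line (Firre inducible transgene) and the KO transgene line (Firre KO and Firre inducible transgene) each matched one of them. All were grown on gelatin in serum with LIF and inhibitors of MEK (PD0325901) and GSK3 (CHIR99021), and the labels give doxycycline as the treatment of every library, those of 0 min included. A long course sampled 0, 720, 1440, 2880 and 5760 min with 3 replicates in each of 20 groups, and a short course sampled every 30 min from 0 to 330 min with 2 replicates in each of 48 groups. Each genotype was 1 line, so the effect of the genotype and that of the line cannot be told apart. What a replicate was is not given in the labels, so p-values measure only the spread between these libraries, which may be technical. In these bulk samples, fewer cells that transcribe a gene and less RNA per cell cannot be told apart.

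The 156 libraries held 18961799 to 47948630 expected counts each. Firre was checked first. In the long course its level was 0.235 to 1.07 TPM (a transcript abundance relative to all others in the library, corrected for transcript length) in the KO control, and in the KO transgene line it was 0.588 to 1.07 TPM before induction and 47.3 to 50.8 TPM after 720 min. In the WT control it was 21.3 to 31.3 TPM, and the WT transgene line held 45.8 to 46.8 TPM at 0 min, above every WT control library, and 109 to 121 TPM at 720 min. By counts, Firre at 0 min was already higher in both transgene lines than in their controls. The log2 fold change was 0.31 ± 0.04 for the WT pair (edgeR's adjusted p = 6.68e-08) and 1.35 ± 0.28 for the KO pair (0.000681). The TPM of the WT pair lay further apart than this. For the KO pair they overlapped the range of the KO control over all times. Firre counts also rose in the KO control over time, by 1.82 ± 0.26 at most (edgeR's adjusted p = 2.25e-07). The response of Firre to induction at the time of largest size was 0.72 ± 0.06 in the WT background and 4.91 ± 0.42 in the KO background. All 8 ESC markers were present in all libraries, with Pou5f1 at 791 TPM or above, and the summed level of 7 fibroblast markers was at most 5.26 TPM. Markers of primordial germ cells were mixed in level, with Nanos3 at 0.474 to 3.49 TPM and Prdm1 at 0.606 to 2.12 TPM. The others were higher in every library. Kit was at 32.4 to 59.1 TPM and Prdm14 at 18.4 to 41.3 TPM. Tfap2c was at 8.95 to 23.1 TPM, Dppa3 at 5.998 to 59.2 TPM and Dnd1 at 5.41 to 13.2 TPM.

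The ratio of expected count to TPM, which reflects the transcript length assigned to a gene, separated the long-course libraries into 2 sets of 30. Set A held all 24 libraries of 0 and 5760 min and 6 of those of 720 and 1440 min, and set B held the remaining ones, including all 12 of 2880 min. From set A to set B the log2 ratio rose by 0.48 for Sycp3, 0.45 for Sycp1, 0.36 for Hormad1 and 0.35 for Dazl, and it fell by 0.22 for Rhox5. Counts and TPM of these genes therefore moved apart between 0 min and the middle times, while 0 and 5760 min can be compared within set A. The fits were repeated with the implied length as an offset, and calls that this removed are named beside each result. The long-course fits were also repeated with the library set as a term and without the WT control library 3 of 1440 min, which was in set A. Beyond these refits the part of the sets in the results was not tested.

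**Figure D1:**
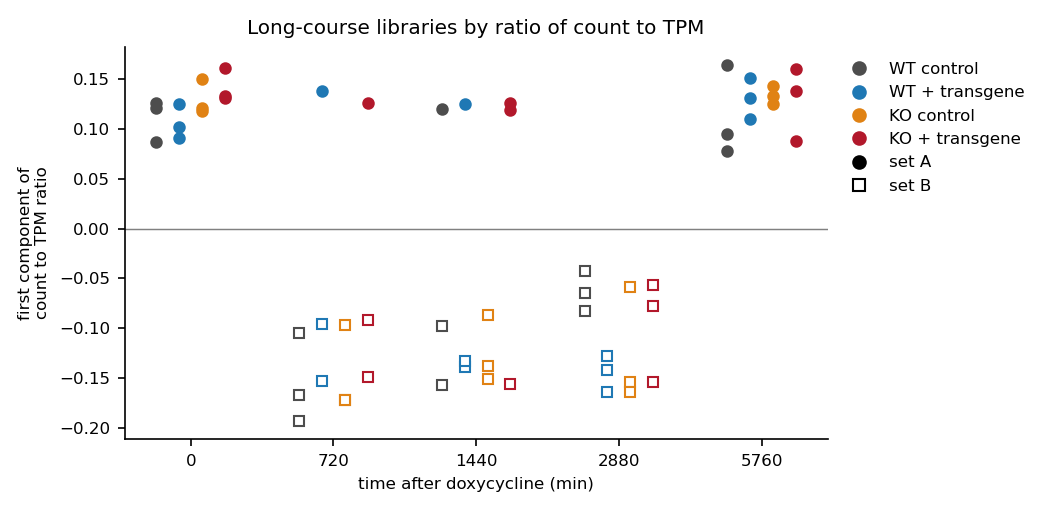
First principal component of the count to TPM ratio (11033 genes) for each of the 60 long-course libraries, by time in min (evenly spaced on the axis) and line. Filled circles are set A and open squares set B; all libraries of 0 and 5760 min are in set A, all of 2880 min in set B, and 720 and 1440 min hold both.

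Hormad1 and Dazl were the most abundant members, with medians over all libraries of 70.8 and 65.6 TPM. Dazl (chromosome 17, 50279395 to 50293636, mm10, minus strand, GENCODE M21) lay above 90.5% of the 25323 genes with a TPM above 0 in the WT control at 0 min of the long course. Rhox5 (X, 37804842 to 37808876) followed at 27.6 TPM, and Sycp3 (10, 88459569 to 88473236), Ddx4 (13, 112598333 to 112652475), Sycp1 (3, 102818499 to 102936100) and Mael (1, 166201201 to 166238747) lay at 10.4, 7.43, 6.99 and 6.33 TPM. Rhox6 (X, 37826910 to 37829857), Rhox9 (X, 37899097 to 37901770) and Asz1 (6, 18050964 to 18109061) were the lowest, at 3.50, 2.64 and 0.363 TPM, and Asz1 rested on only 2 to 31 counts a library. In this order the ranges of neighbours over the 156 libraries overlapped, except that every library had more Rhox9 (1.36 TPM or above) than any had Asz1 (0.958 TPM or below). All 10 members passed the filter on low counts in both courses.

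Some values are uncertain because sequence is shared. Rhox6 shares 23.3% of its 31-base words with Rhox9, and Rhox9 9.08% of its own with Rhox6, so how reads were divided between these genes is not certain. Hormad1 shares 36.3% of its words with other genes, mostly the transcript Gm15529, and Sycp1 shares 15.6%, mostly with the pseudogene Sycp1-ps1. An exon of Sycp3 overlaps an exon of Chpt1 on the opposite strand, and the library kit does not mark strand, so reads there cannot be told apart.

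The promoters show how the members differ in the sequence that DNA methylation and the MGA and E2F6 complexes are known to act on. RefSeq windows (GRCm38.p6) of 250 bases upstream of the start were at hand for 8 members, all but Rhox6 and Rhox9. CpG pairs numbered 31 in the window of Ddx4, 20 in Dazl, 19 in Hormad1, 18 in Mael, 17 in Sycp1, 15 in Asz1 and 12 in Sycp3, and 4 in the RefSeq window of Rhox5, against a median of 6 over 32851 windows. The Rhox5 window ends at 37754607, far before the GENCODE gene start at 37804842. Which start these cells use was not settled, so this window may not be the promoter of the RNA counted. The E-box CACGTG, which reads the same on both strands, was present in 5 of 8 members (Ddx4, Mael, Sycp1, Sycp3 and Hormad1) and in 6.02% of all windows. Sycp3 and Hormad1 had 2 E-boxes each, which 0.429% of all windows had. The E2F-type motif TTCCCGC or its reverse GCGGGAA was present in Ddx4, Sycp3 and Hormad1 and in 3.82% of all windows, and 0.338% of all windows held both kinds of motif. The motifs do not overlap each other. A match is a description of letters and not of binding. The windows of Sycp3 (chr10:88459337-88459586, plus strand) and Hormad1 (chr3:95559427-95559676, plus strand) are shown 5′ to 3′ with the E-boxes and E2F-type motifs in capitals:
Sycp3: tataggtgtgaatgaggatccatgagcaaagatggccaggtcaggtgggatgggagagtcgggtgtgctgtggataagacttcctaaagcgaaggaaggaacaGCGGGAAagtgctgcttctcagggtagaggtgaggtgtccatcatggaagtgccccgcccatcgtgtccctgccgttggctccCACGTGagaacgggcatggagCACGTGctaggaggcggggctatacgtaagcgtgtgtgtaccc
Hormad1: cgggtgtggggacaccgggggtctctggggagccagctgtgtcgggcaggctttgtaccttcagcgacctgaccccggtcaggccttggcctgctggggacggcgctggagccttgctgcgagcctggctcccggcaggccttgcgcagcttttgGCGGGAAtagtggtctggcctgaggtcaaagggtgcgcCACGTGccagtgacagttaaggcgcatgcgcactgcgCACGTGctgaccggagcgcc
The windows of Dazl (chr17:50293621-50293870, minus strand) and Rhox5 (chrX:37754358-37754607, plus strand, upstream of the GENCODE gene) hold neither motif and are shown 5′ to 3′ with each CpG in capitals:
Dazl: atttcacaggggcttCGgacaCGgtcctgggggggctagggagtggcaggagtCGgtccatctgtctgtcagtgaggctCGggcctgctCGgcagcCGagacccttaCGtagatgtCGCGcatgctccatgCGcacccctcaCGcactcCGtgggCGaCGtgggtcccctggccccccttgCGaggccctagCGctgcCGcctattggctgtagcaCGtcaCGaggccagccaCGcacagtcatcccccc
Rhox5: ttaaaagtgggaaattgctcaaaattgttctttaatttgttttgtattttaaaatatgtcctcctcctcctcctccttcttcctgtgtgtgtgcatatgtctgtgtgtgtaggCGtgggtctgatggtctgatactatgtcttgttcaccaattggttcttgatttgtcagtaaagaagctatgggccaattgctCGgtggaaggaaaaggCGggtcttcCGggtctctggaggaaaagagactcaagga

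Which members differed without Firre was asked by setting the KO control against the WT control. At 0 min of the long course 6 of 10 members were higher in the KO control and 0 were lower, by edgeR's quasi-likelihood test with Benjamini-Hochberg adjustment over 17565 genes (threshold 0.05). Over all genes 35.1% differed and 16.5% were higher, and the median log2 fold change was 0.34 over the members against -0.01 over all genes. Dazl was at 106, 99.2 and 102 TPM in the KO control and at 56.2, 56.7 and 59.4 TPM in the WT control. The groups did not overlap, and the log2 fold change was 0.85 ± 0.04 (SE, n = 3 and 3; edgeR adjusted p = 1.61e-27). Rhox5 was at 46.2, 46.3 and 45.5 TPM in the KO control and at 24.8, 24.9 and 28.8 TPM in the WT control. Its groups were as far apart, at 0.82 ± 0.07 in log2 units (edgeR adjusted p = 3.1e-18). Sycp1 (0.49 ± 0.09), Mael (0.36 ± 0.10), Hormad1 (0.32 ± 0.07) and Ddx4 (0.20 ± 0.06) differed by smaller log2 fold changes. With the length offset Sycp1 (edgeR adjusted p = 0.466) and Hormad1 (0.0663) no longer passed, and without replicate 3 of every group Ddx4 did not (0.0982). Sycp3 (0.21 ± 0.11), Rhox9 (0.27 ± 0.17), Rhox6 (-0.16 ± 0.14) and Asz1 (0.76 ± 0.35) did not pass.

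The difference between the control lines did not have the same sign throughout. Rhox5 in the KO control was above the WT control at 0 and 720 min and below it, without overlap, at 1440, 2880 and 5760 min, where the means were 19.4 against 40.9, 20.6 against 34.4 and 17.3 against 24.2 TPM. As the mean over the 5 times, 6 members were higher and 1, Rhox5, was lower in the KO control, where 52.2% of all genes differed. The mean log2 fold change of Rhox5 was -0.19 ± 0.03 (edgeR adjusted p = 1.09e-06) and that of Dazl 0.41 ± 0.02 (edgeR adjusted p = 1.58e-27). Sycp1 (0.42 ± 0.04), Mael (0.28 ± 0.05), Sycp3 (0.19 ± 0.05), Rhox9 (0.19 ± 0.08) and Ddx4 (0.15 ± 0.03) were the other members that differed. Of these, Sycp3 did not pass with the length offset (edgeR adjusted p = 0.0633), and Rhox9 did not pass without replicate 1 (0.0776) or 3 (0.233) or by DESeq2 (0.0562).

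The short course gave a different picture of the same lines. There 4 members were higher and 5 lower in the KO control over the mean of the 12 times, where 46.6% of all 18009 genes differed. Rhox5 ranged from 18.8 to 25.8 TPM (median 22.6) over the 24 KO control libraries and from 45.4 to 56.9 TPM (median 51.0) over the 24 WT control libraries. The ranges did not overlap, and the log2 fold change was -1.03 ± 0.03 (edgeR adjusted p = 9.98e-56), opposite in sign to that at 0 min of the long course. At 0 min Rhox5 was at 46.0 ± 0.421 TPM (SD, n = 3) in the KO control of the long course and at 25.8 ± 0.0694 TPM (SD, n = 2) in that of the short course, and in the WT control it was at 26.2 ± 2.25 and 53.6 ± 4.70 TPM. The courses were fitted separately, and the difference between them was not tested.

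Sycp3 and Dazl also stood differently in the short course. Sycp3 ranged from 12.2 to 21.1 TPM (median 16.9) in the KO control and from 7.34 to 10.8 TPM (median 9.24) in the WT control, and the ranges did not overlap. Its log2 fold change of 0.70 ± 0.04 (edgeR adjusted p = 1.81e-26) was the largest increase among the members there. Dazl ranged from 65.2 to 82.0 TPM in the KO control and from 60.7 to 75.0 TPM in the WT control, with overlapping ranges, and the log2 difference was 0.01 ± 0.02 (edgeR's adjusted p = 0.594). With the length offset the value for Dazl was 0.13 (edgeR adjusted p = 2.29e-05). Sycp1 (0.57 ± 0.04), Mael (0.42 ± 0.03) and Ddx4 (0.27 ± 0.03) were called higher in the KO control in both courses. For these and Sycp3 the libraries, 2 in each group, did not overlap at any of the 12 times. In the long course Sycp1 and Mael overlapped at 3 of 5 times each, Ddx4 at 1 and Sycp3 at 5. How many of all genes did not overlap was not counted. Asz1 (-0.57 ± 0.15), Rhox6 (-0.47 ± 0.06), Rhox9 (-0.28 ± 0.08) and Hormad1 (-0.13 ± 0.02) were lower, and Hormad1 was at 0.00 with the length offset (edgeR adjusted p = 0.913).

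**Figure D2:**
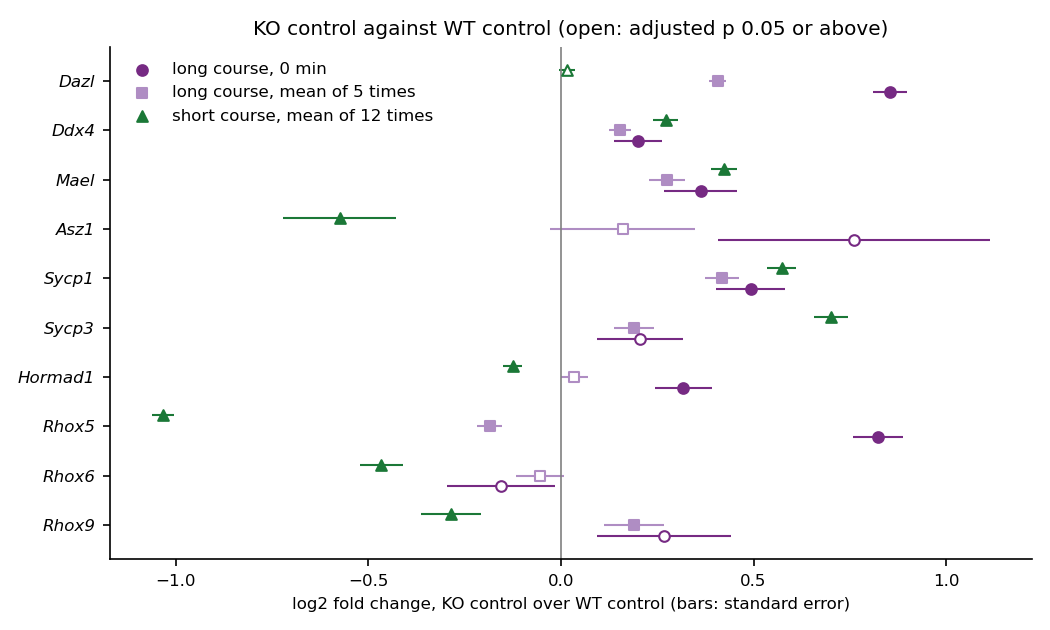
Log2 fold change of each member in the KO control over the WT control, with its standard error, at 0 min of the long course, over the mean of its 5 times and over the mean of the 12 short-course times; filled symbols passed an adjusted p of 0.05. Rhox5 lies at 0.82 and -1.03 in the first and last comparison, and Sycp1, Mael and Ddx4 lie above 0 in all of them.

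**Figure D3:**
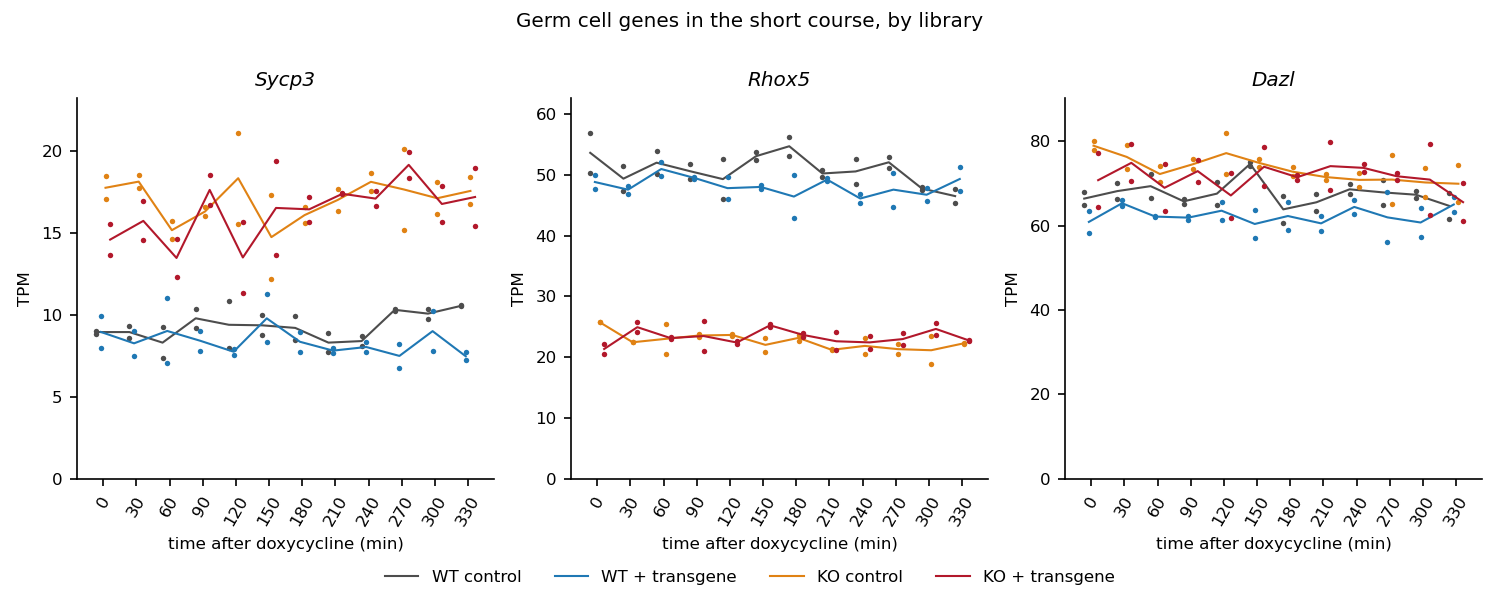
TPM of Sycp3, Rhox5 and Dazl in each short-course library (points, 2 per line and time) with the mean (line), against time in min. The lines with a WT background lie above those with a KO background for Rhox5 and below them for Sycp3, with little change over 330 min.

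Over 5760 min the control lines themselves changed, without a transgene. In the KO control all 10 members changed, 8 downward and 2 upward, where 59.6% of all genes changed and 29.8% went down. The median log2 change at the time of largest size was -0.57 over the members and -0.06 over all genes. The mean of Dazl was 103 ± 3.60 TPM before induction, 83.1 ± 3.82 after 720 min, 36.4 ± 2.95 after 1440 min and 39.8 ± 3.50 after 5760 min (SD, n = 3), a log2 change of -1.32 ± 0.05 at 5760 min (edgeR adjusted p = 2.98e-46). Rhox5 began at 46.0 ± 0.421 TPM, stood at 55.5 ± 8.49 after 720 min and 19.4 ± 1.56 after 1440 min, a log2 change of -1.47 ± 0.07 at 1440 min (edgeR adjusted p = 8.11e-38). For both the 3 libraries of 1440, 2880 and 5760 min all lay below those of 0 and 720 min. At 720 min the change of Dazl was 0.06 ± 0.04 from counts (edgeR adjusted p = 0.517) and -0.35 with the length offset (0.00369). Hormad1 fell by 0.87 ± 0.08 on the log2 scale at 5760 min, Sycp1 by 0.60 ± 0.09 and Mael by 0.54 ± 0.10 at 2880 min, and Asz1 by 1.43 ± 0.39 at 1440 min. Sycp3 (-0.26 ± 0.11) and Ddx4 (-0.18 ± 0.06), both at 5760 min, fell least; the call for Ddx4 was lost with the length offset (edgeR adjusted p = 0.0618) and that for Sycp3 without replicate 2 (0.0586). Rhox6 (0.92 ± 0.13) and Rhox9 (0.72 ± 0.16) rose at 5760 min.

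In the WT control 9 members passed, 5 upward and 4 downward by the time of largest size, where 54.8% of all genes changed. Dazl fell from 57.5 ± 1.74 to 33.1 ± 1.68 TPM at 5760 min, a log2 change of -0.72 ± 0.05. Hormad1 (-0.45 ± 0.08) and Mael (-0.43 ± 0.11), both at 5760 min, and Sycp1 (-0.49 ± 0.10, at 1440 min) fell as well. Rhox5 rose to 40.9 ± 2.63 TPM at 1440 min, a log2 change of 0.52 ± 0.07 (edgeR adjusted p = 1.16e-13), and was back at 24.2 ± 0.981 TPM at 5760 min. The 2 control lines thus moved in opposite directions for Rhox5 at 1440 min; the difference of these changes was not tested. Rhox6 (0.50 ± 0.13) and Rhox9 (0.64 ± 0.18) rose, but Rhox6 did not pass without replicate 2 (edgeR adjusted p = 0.216) or 3 (0.0644) and Rhox9 without replicate 2 (0.125). Ddx4 (0.22 ± 0.06 at 720 min) and Sycp3 (0.21 ± 0.12 at 2880 min) were also called upward, and both calls held with the library set as a term. With the length offset Sycp3 turned to -0.13 at 2880 min (edgeR adjusted p = 0.0522), Ddx4 did not pass (0.171), and neither passed without replicate 1 (0.0912 for Ddx4, 0.19 for Sycp3), nor Sycp3 without replicate 3 (0.17).

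Each transgene line was also set against its control before induction. In the KO background 0 of 10 members differed at 0 min of the long course by edgeR and 0 by DESeq2, 2 had an unadjusted p under 0.05, and 3.54% of all genes differed. In the WT background 5 members were lower in the transgene line and 0 higher, where 13.2% of all genes differed and 5.94% were lower. Other lists moved in this comparison too: 13 of 32 other germ cell genes were lower and 1 higher, 7 of 8 markers of a 2-cell-like state were lower (median -0.58; Usp17lc -0.75 ± 0.10), and 3 of 7 markers of primordial germ cells were lower (Dppa3 -0.81 ± 0.09). Their part in the members' differences was not tested. Rhox5 was at 13.1, 15.7 and 14.6 TPM in the WT transgene line, below each of the 3 WT control libraries, a log2 difference of -0.86 ± 0.08 (edgeR's adjusted p = 6.15e-15). Dazl (-0.50 ± 0.05), Ddx4 (-0.49 ± 0.07), Sycp1 (-0.46 ± 0.10) and Sycp3 (-0.37 ± 0.12) were also lower. With the length offset Sycp1 (edgeR adjusted p = 0.0523) and Sycp3 (0.238) did not pass, and Sycp3 did not pass without replicate 2 (0.106) or 3 (0.452). At 0 min of the short course 0 members differed in the KO background by edgeR and by DESeq2 (2 with an unadjusted p under 0.05; 0.428% of all genes differed). In the WT background 1 did, Ddx4 (-0.44 ± 0.09, edgeR adjusted p = 0.000472), where 6.86% of all genes differed. It was not called without replicate 2 (edgeR adjusted p = 0.112). These short-course values come from a spline over all times, so they also draw on libraries after induction. By this fit Firre was 4.50 ± 0.70 log2 units higher in the KO transgene line (edgeR adjusted p = 2.38e-05). Yet the lowest library of that line in this course held 1.38 TPM, within the 0.279 to 2.02 TPM of the KO control. The short-course values therefore cannot show how the lines stood before induction.

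The response to Firre in the KO background (rescue) was taken as how far the KO transgene line moved from 0 min less how far the KO control did. In the long course 7 of 10 members passed, all upward, where 11.5% of all genes passed and 5.56% upward. The median log2 response was 0.90 over the members and -0.05 over all genes, each at its time of largest size. At 720 min, when Firre was already induced, 0 members passed by edgeR adjusted over all genes at that time, and the lowest adjusted p was 0.803 (Sycp3).

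Dazl was at 68.7, 91.6 and 81.5 TPM in the KO transgene line at 1440 min and at 39.6, 36.1 and 33.7 TPM in the KO control. The groups did not overlap, and they had been at 92.1 to 93.8 and 99.2 to 106 TPM at 0 min. The response was 1.13 ± 0.06 on the log2 scale at 1440 min (edgeR adjusted p = 1.74e-29 over all times), 0.91 ± 0.06 at 2880 min and 0.73 ± 0.06 at 5760 min. The KO transgene line began below the KO control, overlapped it at 720 min and lay above it from 1440 min on, with 56.5 ± 2.30 TPM at 5760 min against 39.8 ± 3.50 in the KO control. Ddx4, the other gene of this role, had a response of 0.26 ± 0.09 at 5760 min (edgeR adjusted p = 0.0348), which did not pass without replicate 2 (0.179) or 3 (0.567) or with the length offset (0.4).

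Among the piRNA pathway genes, Mael (0.30 ± 0.14 at 1440 min, edgeR adjusted p = 0.179) and Asz1 (1.20 ± 0.52 at 1440 min, 0.0847) did not pass. Asz1 was at 0.514, 0.499 and 0.524 TPM in the KO transgene line at 1440 min and at 0.182, 0.254 and 0.143 TPM in the KO control. These groups did not overlap at that time. Of the meiotic axis genes, Hormad1 was at 55.9, 79.7 and 78.4 TPM in the KO transgene line at 1440 min and at 44.1, 38.3 and 38.7 TPM in the KO control. The 2 higher libraries were in set A and the lowest in set B, as was the whole KO control at that time, and all 3 lay above the control. The response of Hormad1 was 0.68 ± 0.11 at 1440 min (edgeR adjusted p = 4.86e-06) and 0.37 ± 0.11 at 5760 min, where both lines and 0 min were in set A. Sycp1 (0.42 ± 0.13 at 1440 min, edgeR adjusted p = 0.00426) did not pass without replicate 2 (0.0866) or 3 (0.0615) or with the length offset (0.744). Sycp3 had a response of 0.24 ± 0.16 at 720 min and 0.12 ± 0.16 at 5760 min and did not pass (edgeR adjusted p = 0.305).

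All 3 homeobox genes passed. Rhox5 was at 41.8, 46.1 and 49.8 TPM in the KO transgene line at 5760 min and at 17.4, 18.6 and 15.9 TPM in the KO control. The KO transgene line stayed near its 0 min level of 50.2 ± 1.65 TPM while the KO control fell, and the response was 1.27 ± 0.09 at 5760 min (edgeR adjusted p = 9.13e-26), 1.22 ± 0.10 at 2880 min and 1.20 ± 0.09 at 1440 min. Rhox6 was at 8.68, 11.2 and 9.53 TPM in the KO transgene line at 2880 min and at 3.36, 3.71 and 3.29 TPM in the KO control. The transgene line had been at 2.92 ± 0.573 TPM at 0 min, and the response was 1.34 ± 0.19 at 2880 min (edgeR adjusted p = 2.14e-08). Rhox9 was at 5.75, 9.21 and 6.89 TPM in the KO transgene line at that time and at 2.87, 3.94 and 2.98 TPM in the KO control, with a response of 1.26 ± 0.23 (edgeR adjusted p = 5.19e-05). For Rhox6 and Rhox9 the KO transgene line at 2880 min lay above its own 0 min libraries, whereas Dazl and Hormad1 lay below theirs, and above the fallen control, from 1440 min on. With the length offset Dazl, Hormad1, Rhox5, Rhox6 and Rhox9 passed, with largest responses of 1.32, 0.89, 1.28, 1.34 and 1.23.

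Trophoblast markers moved in the same libraries as Rhox6 and Rhox9, genes also known from placenta. The summed level of all 7 trophoblast markers in the KO transgene line was 13.5 to 14.7 TPM at 0 min and 100 to 103 TPM at 2880 min, and in the KO control it was 11.3 to 12.3 and 48.0 to 49.6 TPM. Of the 7, 3 had an upward response in the rescue, Krt18 (1.07 ± 0.11) and Krt8 (0.73 ± 0.11), which encode keratins, and Gata3 (0.61 ± 0.25), and 2 a downward one, Eomes (-0.44 ± 0.13) and Hand1, the last of which was chosen after its value was seen. Krt18 and Krt8 reached 48.8 and 47.3 TPM, and of the transcription factors Eomes ranged from 1.72 to 6.74 TPM over all libraries, Gata3 from 0.408 to 2.56, Cdx2 from 0.118 to 1.72, Hand1 from 0.0265 to 0.715 and Elf5 from 0 to 0.334. Of all genes 11.5% passed in the rescue, 5.56% upward. The part of these markers in the response of Rhox6 and Rhox9 was not tested.

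**Figure D4:**
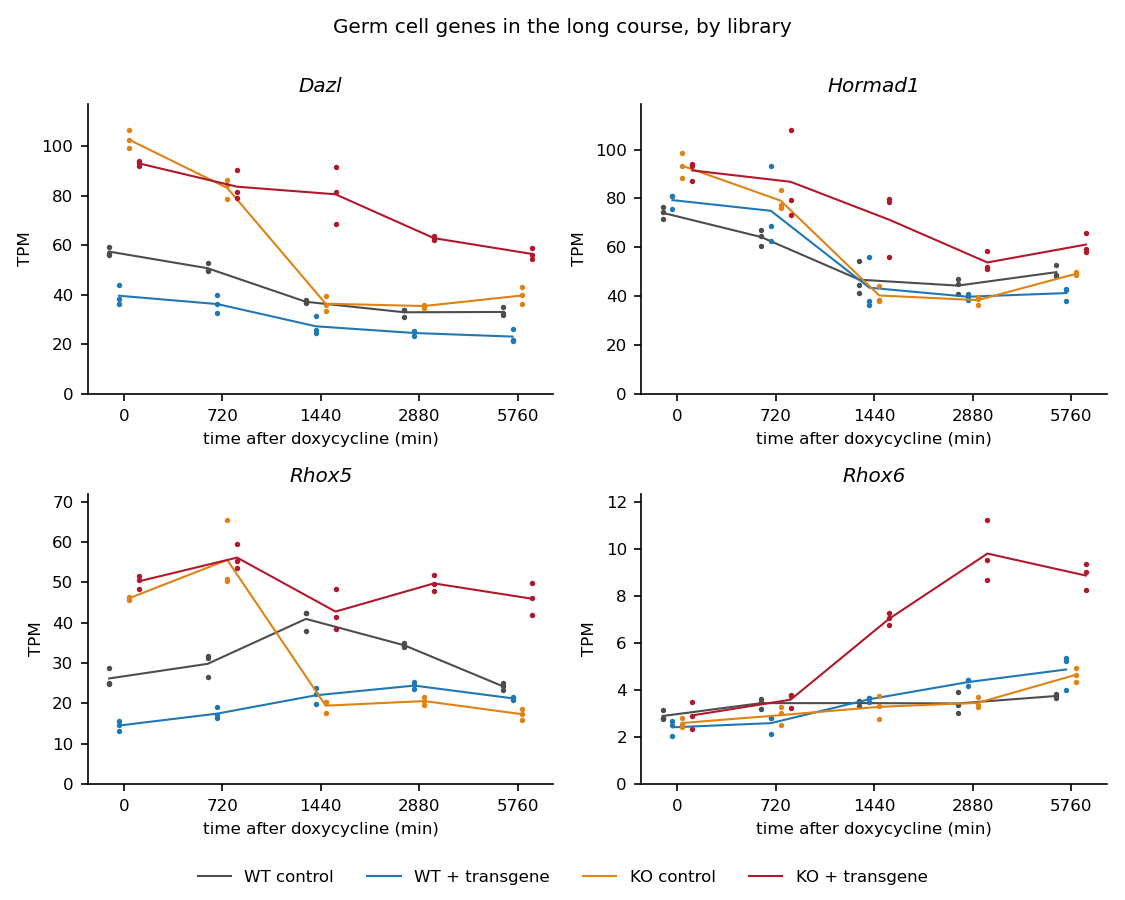
TPM of Dazl, Hormad1, Rhox5 and Rhox6 in each long-course library (points, 3 per line and time) with the mean (line), against time in min (evenly spaced on the axis). The KO control falls from above the WT control to 36.4 TPM for Dazl and 40.3 TPM for Hormad1 at 1440 min, and from that time on the KO transgene line lies above it; Rhox6 in the KO transgene line is at 8.68 to 11.2 TPM at 2880 min.

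The response in the WT background (overexpression) was taken in the same way. In the long course 4 members passed upward and 1 downward, where 9.79% of all genes passed. Rhox5 was at 14.5 ± 1.31 TPM at 0 min and 21.2 ± 0.286 TPM at 5760 min in the WT transgene line, while the WT control was at 26.2 ± 2.25 and 24.2 ± 0.981 TPM. The response was 0.60 ± 0.11 on the log2 scale (edgeR adjusted p = 1.17e-05) and the 3 transgene libraries, at 20.9 to 21.5 TPM, still lay below the 3 control libraries, at 23.2 to 25.2 TPM. Ddx4 had a response of 0.40 ± 0.09 at 2880 min (edgeR adjusted p = 0.00315), Sycp1 of 0.44 ± 0.14 (0.0413), Dazl of 0.21 ± 0.07 (0.0197) and Hormad1 of -0.47 ± 0.11 at 5760 min (0.0188). These 4 did not pass with the length offset or without replicate 2. The number called ranged from 1 to 4 when a replicate was left out of every group. Dazl, Ddx4 and Sycp1 had begun lower in the WT transgene line than in the WT control. At 2880 min their means were still lower, at 24.6 against 33.0, 6.87 against 7.51 and 3.48 against 4.39 TPM. Only Sycp1 overlapped the control at that time, and Dazl lay below it without overlap at every time. Mael, Asz1, Sycp3, Rhox6 and Rhox9 did not pass; Rhox6 had a response of 0.55 ± 0.19 at 5760 min (edgeR adjusted p = 0.0621), which passed with the length offset (0.0446).

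The responses in the KO and the WT background were then compared directly, as rescue minus overexpression. The difference passed for 4 members, 3 of them upward, where it passed for 5.32% of all genes. Rhox5 (1.26 ± 0.14, edgeR adjusted p = 3.22e-14), Dazl (1.06 ± 0.10, 2.36e-15) and Hormad1 (0.90 ± 0.16, 1.04e-05) responded more in the KO background, all with the largest difference at 1440 min. These also passed with the length offset. Sycp3 differed the other way (-0.62 ± 0.23 at 2880 min, edgeR adjusted p = 0.0287) but not with the length offset (0.818) or without replicate 2 (0.46) or 3 (0.294). Rhox6 (0.84 ± 0.27) and Rhox9 (0.84 ± 0.34) did not pass, so their larger rescue response is not shown to differ from that in the WT background.

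**Figure D5:**
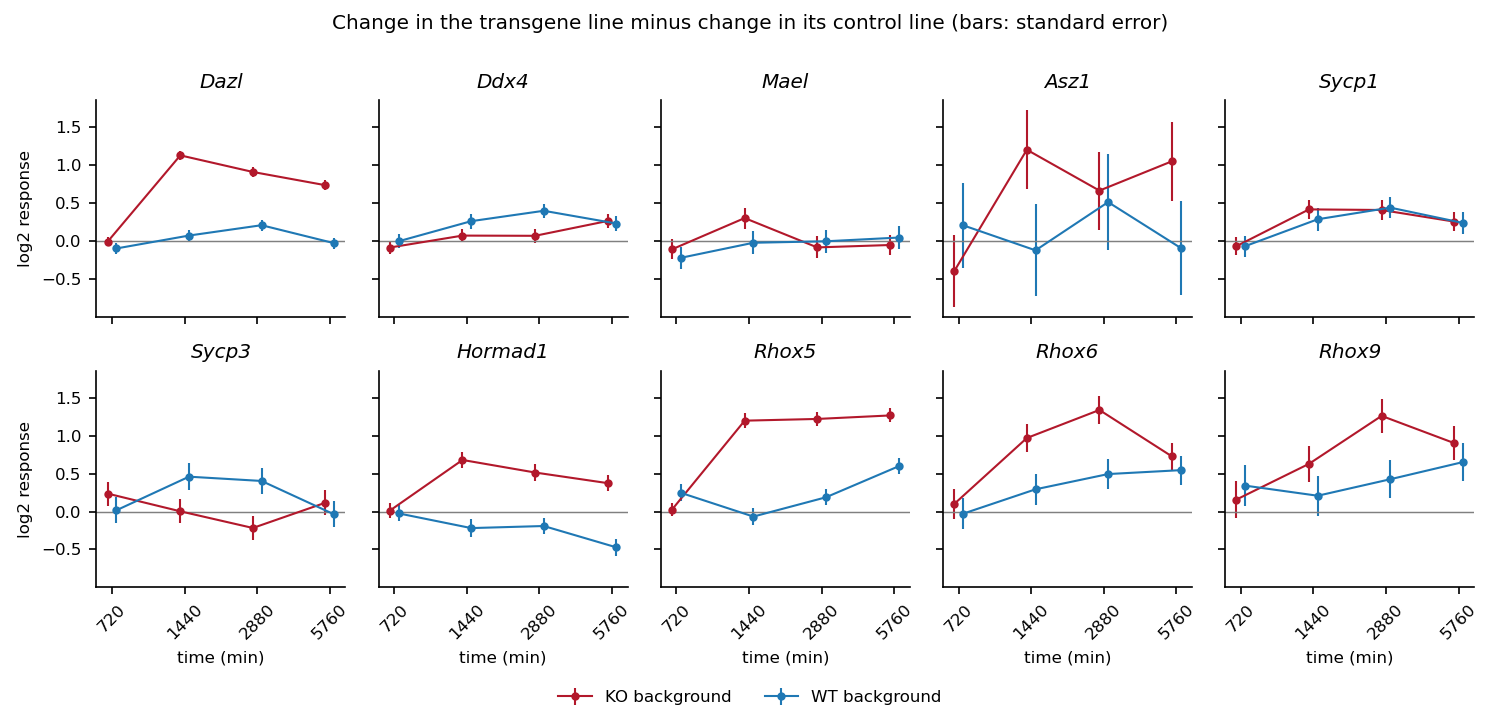
Response to induction (movement of a transgene line since 0 min, less that of its control), in log2 units with standard error, for each member at 720, 1440, 2880 and 5760 min in the KO (red) and the WT (blue) background. Dazl, Hormad1 and Rhox5 separate from 1440 min on, and at 720 min no member passed in either background; the errors of Asz1 are the widest.

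In the first 330 min no response of a member was called. By edgeR 0 of 10 members passed in the rescue (1.82% of all genes did; 3 members had an unadjusted p under 0.05), 0 in the overexpression (0.7% of all genes; 0 members) and 0 in their difference (0.0167% of all genes; 4 members). DESeq2 called 0 in each as well. The rescue test did not call Firre itself in this course (3.21 ± 1.07, edgeR adjusted p = 0.238). Yet Firre reached 471 TPM in the KO transgene line and at most 2.02 TPM in the KO control. This test therefore cannot show that the members did not respond early in the rescue. In the overexpression Firre was called (2.40 ± 0.37, edgeR adjusted p = 1.7e-07). The mean rescue response over the 11 times after 0 min was 0.03 ± 0.06 for Dazl, 0.22 ± 0.09 for Rhox5 and 0.19 ± 0.12 for Sycp3. Within the control lines 0 members changed over the short course in the WT control (21.8% of all genes did; 1 member had an unadjusted p under 0.05 and DESeq2 called 0) and 0 in the KO control (13.3% of all genes; 1 member). In the KO control DESeq2 called 1 member, Rhox5, whose edgeR value was -0.13 ± 0.06 (adjusted p = 0.0605).

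Other germ cell genes gave a wider view, from a list of 34 that holds none of the members (32 tested in the long course). At 0 min 19 were higher and 1 lower in the KO control than in the WT control, with a median log2 fold change of 0.38, where 16.5% of all genes were higher. In the short course 17 differed, all of them higher, with a median of 0.14, where 46.6% of all genes differed. Those higher at 0 min of the long course included Tuba3a (1.03 ± 0.05), Tex14 (0.84 ± 0.04), Tex19.1 (0.76 ± 0.04) and Tdrd12 (0.65 ± 0.04). In the KO control 24 fell and 3 rose over the long course, where 29.8% of all genes fell. In the rescue 13 passed upward and 2 downward, with a median of 0.43 against -0.05 over all genes, of which 5.56% passed upward. Fkbp6, a cochaperone of the piRNA pathway, had a rescue response of 0.68 ± 0.09, Tuba3a of 0.58 ± 0.07, Piwil2, a piRNA-binding protein, of 0.56 ± 0.09 and Tex19.1 of 0.44 ± 0.05. In the overexpression 3 passed upward and 1 downward, where 9.79% of all genes passed. Before induction 5 of the 32 already lay below the KO control in the KO transgene line, Tuba3a by -0.27 ± 0.05 and Tdrd12 by -0.21 ± 0.04 in log2 fold change, where 3.54% of all genes differed. Of the other 31 genes of the Rhox cluster only 4 had enough counts to test, and 2 of these passed upward in the rescue, Rhox2a (2.14 ± 0.50) and Rhox1 (1.14 ± 0.24).

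Genes that write and erase DNA methylation, and the repressors of germ cell genes, were listed as well. Of 9 DNA methylation genes, 5 had an upward and 1 a downward response in the rescue, where 11.5% of all genes passed and 5.56% upward. The de novo methyltransferase genes Dnmt3a (0.47 ± 0.05) and Dnmt3b (0.42 ± 0.05) and the cofactor gene Dnmt3l (0.55 ± 0.05) had upward responses, and Tet2 (-0.37 ± 0.04), which encodes a methylcytosine oxidase, a downward one. At 0 min Dnmt3a was higher (0.68 ± 0.03) and Dnmt3l lower (-0.47 ± 0.03) in the KO control than in the WT control. Of 19 genes of repressor complexes, 2 responded upward and 3 downward in the rescue, including Trim28 (-0.13 ± 0.04) and L3mbtl2 (0.10 ± 0.05), with Yaf2 (0.35 ± 0.15) the largest of those named. Dppa3 is a germ cell and early embryo factor that limits maintenance of DNA methylation. It was higher in the KO control at 0 min (1.52 ± 0.08) and had an upward response in the rescue (0.79 ± 0.13). The 7 markers of primordial germ cells, Dppa3 among them, did not move as 1 set. In the KO control 4 were higher and 1 lower at 0 min of the long course (median 0.13). Over the short course 1 was higher and 4 were lower (median -0.05). Markers of other cell states moved in the same comparisons. Of 8 markers of a 2-cell-like state, the KO control had less of 8 at 0 min (Usp17lc by -1.55 ± 0.11), whereas over the short course it had more of 3 and less of 2. Before induction 7 of the 8 were already higher in the KO transgene line than in the KO control (median 0.50). In the rescue 5 had a downward response, although their summed level was higher at 5760 than at 0 min in both lines, 161 against 96.7 TPM in the KO transgene line and 116 against 72.9 TPM in the KO control (means). Of 8 ESC genes, 5 were lower in the KO control at 0 min and 5 had a downward response, Klf4 at -0.41 ± 0.04 and -0.43 ± 0.05. Over all genes 35.1% differed between the control lines at 0 min of the long course and 46.6% over the short course. Between the KO lines before induction 3.54% of all genes differed. The part of any of the listed genes in the members' changes was not tested.

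Across the 20 groups of the long course, the members fell into correlated sets as a description, with no test, over points that share lines and times. Dazl went with Sycp1 (Pearson r = 0.935 of mean log2 CPM), Asz1 (0.931) and Mael (0.859), and Rhox6 went with Rhox9 (0.946), with which it shares sequence. Dazl and Rhox6 were unrelated in level over these groups (0.031). CPM is not corrected for transcript length, and the groups mix library sets A and B. From set A to set B the log2 count to TPM ratio moved by 0.35 for Dazl, 0.45 for Sycp1, 0.16 for Asz1 and 0.06 for Mael. It moved by -0.07 for Rhox6 and -0.11 for Rhox9. The part of these shifts in the correlations was not tested. Of 13263 genes, those most like Dazl were Hormad2 (0.96), Xlr3a (0.95) and Gpat2 (0.95). Those most like Rhox5 were Fkbp6 (0.82), Gadd45g (0.81) and Ptprj (0.81), and those most like Sycp3 were Ccng1 (0.85), Retreg1 (0.85) and Fnip1 (0.85).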

How the data were processed

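RNA-seq libraries of poly(A) RNA from 4 mouse ESC lines in 2 time courses were analysed. Per the submitters' processing notes, the authors used Salmon 1.5.2 and mm10; how transcripts were summed to genes is not given in the sources used here. The deposited files hold expected counts per gene and TPM (so named per the file headers); all sample names in them matched the labels (0 unmapped). Expected counts were rounded and tested with edgeR 4.0.16 (R 4.3.3) across all genes: filterByExpr (minimum count 10, minimum total 15), TMM, robust quasi-likelihood, Benjamini-Hochberg over all genes tested, threshold 0.05. Each line and time had its own coefficient in the long course. In the short course each line had a natural spline of time with 3 df, from which comparisons at 0 min were taken. A response over several times is an F test, shown at its time of largest size (long course) or as the mean of the times after 0 min (short course), with SE from that contrast. DESeq2 1.42.0, RLE scaling, no filter, left-out replicates, a replicate block, only the lines compared and 1 coefficient per short-course time were alternatives. The length offset, the library set as a term and a left-out library were chosen after seeing the data. TPM describes levels. Named genes were the members, at most 4 passing genes of each list by adjusted p, and the 3 genes most like Dazl, Rhox5 and Sycp3. Scripts were tested on simulated data. The members and lists were chosen with earlier results of these data known.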

Additional observations from a re-analysis of the deposited data

Results flagged for a closer look

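For 4 members the response to Firre differed between the KO and the WT background in the long course, by a test of the difference itself (edgeR, adjusted over all genes). The difference, rescue minus overexpression in log2 units, was 1.26 for Rhox5, 1.06 for Dazl and 0.90 for Hormad1 at 1440 min. For Sycp3 it was -0.62 at 2880 min, and this call was lost with the length offset and without replicate 2 or 3. Before induction Rhox5, Dazl and Sycp3 were lower in the WT transgene line than in the WT control, while no member was called between the KO transgene line and the KO control.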

How the results depend on the processing

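Of 669 values of the 63 called member results under the alternatives, 624 kept their direction and their side of the threshold, 43 lost the call and 2 turned. All 63 kept both with RLE scaling, without a filter and with the replicate block, and so did the 53 long-course ones with the library set as a term and without the WT control library 3 of 1440 min. The length offset accounted for both that turned (Hormad1, KO against WT in the short course, 0.0046; Sycp3, WT control over the long course, -0.13) and 14 of the lost calls. It also left 3 members called between the WT transgene line and the WT control at 0 min of the long course, 2 at that of the short course, and 2 in the long overexpression response, and over all genes it lowered the number called from 6171 to 4106 (KO against WT control, long 0 min), 2024 to 841 (long rescue), 1720 to 657 (long overexpression), 934 to 313 (their difference), 2312 to 1028 and 622 to 228 (WT and KO transgene lines, long 0 min); the cause was not tested. Without replicate 2 these last 5 counts were 742, 297, 233, 1090 and 248. In the short course the rescue count of 328 genes ranged from 52 (without replicate 1) to 1131 (no filter), the overexpression count of 126 from 46 (1 coefficient per line and time) to 799 (without replicate 1), and the count of 3 for their difference from 1 (length offset) to 564 (no filter). The counts at 0 min of the short course, 1236 and 77 for the WT and KO transgene lines, ranged from 201 (without replicate 2) to 2077 (only the lines compared) and from 13 (without replicate 1) to 219 (no filter), and the changes of the WT and KO control lines, 3918 and 2390, fell to 2021 (1 coefficient per line and time) and 791 (without replicate 1). The number of members called without a replicate ranged from 1 to 4 in the overexpression (1 without replicate 2, 2 without replicate 3), from 5 to 9 in the rescue (9 without replicate 1, 1 of them downward) and from 0 to 1 between the WT lines at 0 min of the short course. Without a filter 1 member was called between the KO lines at 0 min of the short course. In the short KO control DESeq2, RLE scaling and the replicate block each called 1. Same-numbered libraries were not all correlated over 0.1, so the numbers were not taken to pair them: 7 of 45 values were in the long course (-0.19 to 0.18) and 11 of 36 in the short one (-0.23 to 0.30). Of those 11, 10 came from the 12 times of the KO transgene line and the KO control (-0.11 to 0.30, median 0.12), where the replicate block left the short rescue at 0 members called. Asz1 had the lowest counts, with a median of 10 a library.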
